A study of Mus musculus with 26 samples.

Results

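Chromosome 7 of the mouse carries several families of zinc finger protein (Zfp) genes, and Promoter Capture Hi-C (PCHi-C) and RNA-seq of 3 pluripotent cell types were examined at these genes. The members were all genes named Zfp plus a number, with no further letter, whose baited HindIII fragment lies on chromosome 7 in any of the 3 lists of promoter contacts. This gave 61 genes on 61 baited fragments, of 18833 gene names on 19022 baited fragments in all. Each of the 61 fragments names 1 gene, and all 61 genes have an expression value. PCHi-C joins restriction fragments that lie close together in fixed nuclei and pulls down the products that contain a promoter, so each contact links a baited promoter fragment (the bait) to another fragment. The wild-type (WT) embryonic stem cells (ESCs) were E14Tg2a cells, a 129P2/OlaHsd line kept with LIF in serum. The *Nanog*-/- ESCs were RCNβH-B(t) cells, a line derived from E14Tg2a that lacks functional *Nanog* and was expanded under hygromycin. The epiblast stem cells (EpiSCs) came from 129S2 embryos and were kept with Activin A and bFGF. The strain label of every sample reads C57BL/6, which differs from these line names. The cell types therefore differ in medium and, for EpiSCs, in strain, and these cannot be told apart from pluripotent state. PCHi-C labels name 5 lanes for WT ESCs, 2 for EpiSCs and 5 for *Nanog*-/- ESCs, and RNA-seq labels name 3, 4 and 3 samples.

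Most Zfp genes encode proteins with arrays of C2H2 fingers, each of which can contact a few bases of DNA. Many also carry a KRAB domain, which recruits TRIM28 (KAP1) and with it the histone methyltransferase SETDB1, heterochromatin proteins and histone deacetylases, and so silences retroelements and imprinted regions in early embryos and ESCs. These genes multiplied by tandem duplication and sit side by side in clusters. *Zfp36*, which encodes tristetraprolin, belongs here by name only, since its CCCH fingers bind AU-rich mRNA and speed its decay.

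Each contact has 1 combined value per list and each gene 1 median per group, so no value has a replicate error and no test was run. Intervals in brackets are Wilson 95% intervals for shares, or intervals from the ranks for medians. They cover counting error only, since contacts of the same bait or region are not independent. The lists hold 100492 pairs of fragments in WT ESCs, 87369 in EpiSCs and 74931 in the *Nanog*-/- ESCs, with 2177383, 1651422 and 1440356 reads in these pairs and a median of 13, 11 and 11 reads. Contacts scoring under 5 with CHiCAGO, the authors' measure of reads above background, are not listed, so an absent contact can be one just below that limit. Median *Nanog* RPKM (reads per kilobase of gene, normalised to library size, as deposited) was 418 in WT ESCs and 22.3 in *Nanog*-/- ESCs. By scaled RPKM (defined with the expression results), all 7 naive markers measured were lower by 2-fold or more in EpiSCs, among them *Esrrb* (0.775 against 210 RPKM as deposited). Of 8 primed markers, 4 were higher in EpiSCs, among them *T* (444 against 3.37 RPKM), 1 was lower, *Lefty2* (log2 difference -2.74), and 3 differed by less than 2-fold. The 4 endoderm markers added up to 3.53 scaled RPKM in WT ESCs, 17.7 in EpiSCs and 54.98 in the *Nanog*-/- ESCs, and their part in the other results was not tested. In these bulk samples, fewer cells of a type and less RNA per cell cannot be told apart.

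The 61 promoters formed 18 runs when genes with gaps of up to 500 kb were joined, and 53 of them lay in runs of at least 2 genes. The runs with the most genes were *Zfp84* to *Zfp146*, with 11 genes in 417 kb (chr7:29765678-30182945, GRCm38), and *Zfp112* to *Zfp428*, with 10 genes in 396 kb (chr7:24111314-24507152). *Zfp541*, *Zfp526*, *Zfp536*, *Zfp788*, *Zfp473*, *Zfp592*, *Zfp143* and *Zfp941* stood alone. In GENCODE M21, 59 members are protein coding and *Zfp939* is a transcribed pseudogene, while *Zfp607* was not found under that symbol. The fragments, with a median of 4.76 kb, held the gene's own GENCODE start in 51 cases. For the other 10 the bait names the gene but no GENCODE start of it was found there, and these were *Zfp607*, *Zfp78*, *Zfp541*, *Zfp108*, *Zfp59*, *Zfp850*, *Zfp14*, *Zfp939*, *Zfp143* and *Zfp646*. Of these, *Zfp541* has a RefSeq start in its bait.

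RefSeq promoter windows of 300 bases were found for 55 members, and in 43 the window lay within the baited fragment. The parts before the start site are shown for 3 sets. *Zfp787* and *Zfp444* made the highest-scoring contact among the members. *Zfp658* and *Zfp719* are neighbours in contact in WT ESCs and EpiSCs that both hold an exact match to the NRF1 motif. *Zfp768* and *Zfp819* had the largest expression differences between EpiSCs and WT ESCs. Capitals mark matches to the motif of NRF1, a palindrome of 10 bases, in *Zfp658* and *Zfp719*, and of ETS factors (CCGGAAG) in *Zfp787*, and each sequence is written 5′ to 3′ on the strand of its gene (RefSeq, GRCm38.p6).
Zfp787 (chr7:6155966-6156215, minus strand): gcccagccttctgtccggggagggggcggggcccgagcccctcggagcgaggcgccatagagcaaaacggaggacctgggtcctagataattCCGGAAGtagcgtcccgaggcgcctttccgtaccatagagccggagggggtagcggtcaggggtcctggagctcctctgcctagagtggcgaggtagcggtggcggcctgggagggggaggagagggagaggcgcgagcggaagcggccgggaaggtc
Zfp444 (chr7:6172263-6172512, plus strand): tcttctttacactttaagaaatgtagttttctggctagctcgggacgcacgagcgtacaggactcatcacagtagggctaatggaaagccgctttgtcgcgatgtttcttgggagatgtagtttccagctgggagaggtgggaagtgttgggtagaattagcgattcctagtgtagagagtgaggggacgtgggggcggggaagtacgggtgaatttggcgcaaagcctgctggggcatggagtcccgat
Zfp658 (chr7:43562120-43562369, plus strand): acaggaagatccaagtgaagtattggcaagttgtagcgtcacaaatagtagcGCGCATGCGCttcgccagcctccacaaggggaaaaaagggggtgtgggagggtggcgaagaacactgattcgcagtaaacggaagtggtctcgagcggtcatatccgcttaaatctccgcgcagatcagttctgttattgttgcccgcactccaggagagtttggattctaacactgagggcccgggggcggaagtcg
Zfp719 (chr7:43579336-43579585, plus strand): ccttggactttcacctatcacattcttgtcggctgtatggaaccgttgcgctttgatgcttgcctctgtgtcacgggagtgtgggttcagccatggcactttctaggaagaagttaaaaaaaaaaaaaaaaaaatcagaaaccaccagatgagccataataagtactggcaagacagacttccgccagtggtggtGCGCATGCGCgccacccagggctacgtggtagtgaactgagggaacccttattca
Zfp768 (chr7:127345315-127345564, minus strand): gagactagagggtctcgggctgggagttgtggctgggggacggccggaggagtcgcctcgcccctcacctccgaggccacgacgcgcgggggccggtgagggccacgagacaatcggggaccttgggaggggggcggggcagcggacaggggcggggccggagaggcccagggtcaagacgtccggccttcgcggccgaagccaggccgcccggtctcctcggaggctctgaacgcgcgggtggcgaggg
Zfp819 (chr7:43606919-43607168, plus strand): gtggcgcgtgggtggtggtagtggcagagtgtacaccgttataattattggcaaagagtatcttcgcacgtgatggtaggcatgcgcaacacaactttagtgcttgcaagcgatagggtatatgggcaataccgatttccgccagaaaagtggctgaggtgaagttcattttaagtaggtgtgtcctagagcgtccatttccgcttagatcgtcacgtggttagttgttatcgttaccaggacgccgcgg

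In the 300-base windows, searched on both strands, the NRF1 motif occurred in 5 of 43 member promoters (11.6%) and in 213 of 13718 promoters of baited fragments (1.55%). The 5 genes were *Zfp30*, *Zfp329*, *Zfp658*, *Zfp719* and *Zfp82*. The ETS motif was in 20.9% of member promoters against 13.2% of all, and that of YY1 (AAGATGGC) in 6.98% against 3.49%. The SP1 motif (GGGCGG) was in 37.2% against 53.5%, the CCAAT box in 39.5% against 36.8% and the TATA box (TATAAA) in 11.6% against 10.5%. The exact string ACTACAA, used for ZFP143, was in none of the 43 and in 3.38% of all. Variants of it, such as actacat, were not counted. That variant is found, on either strand, in the windows of *Zfp60*, *Zfp420*, *Zfp444*, *Zfp566*, *Zfp954* and others. The count of the exact string thus does not show that ZFP143 sites are absent or rare. Each motif was counted on its own, so matches of different motifs can share bases, and a match is a description of letters, not of binding. The observed-to-expected CpG ratio had a median of 0.70 in member promoters and 0.67 in all.

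The Zfp promoters made 474 contacts in WT ESCs, 358 in EpiSCs and 305 in the *Nanog*-/- ESCs. Promoters were common among the partners. In WT ESCs, 40.9% of the contacts (36.6 to 45.4) reached another baited promoter, against 27.7% (26.8 to 28.5) for other baits of chromosome 7 and 23.1% for all baits. The shares were 37.2% (32.3 to 42.3) against 24.2% in EpiSCs and 34.8% (29.6 to 40.3) against 27.2% in *Nanog*-/- ESCs. Zfp promoters on other chromosomes had a like share of 42.8% (39.4 to 46.3) in WT ESCs, and olfactory receptor (Olfr) promoters of chromosome 7 a higher one of 60.6% (56.9 to 64.2).

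Baits were also dense around the Zfp genes, with a median of 12 other baits within 200 kb against 9 for other baits of chromosome 7 and 6 for all. Within 200 kb of a Zfp promoter, 9.07% of all HindIII fragments were baited, against 8.79% for other baits of chromosome 7 and 6.08% for all. Among contacts within 200 kb, 35.4% of partners in WT ESCs (30.8 to 40.3), 33.8% in EpiSCs (28.6 to 39.4) and 32.7% in the *Nanog*-/- ESCs (27.3 to 38.6) were promoters. The other baits of chromosome 7 had 27.4%, 24.9% and 26.3%. These shares were also divided by the share of fragments with a bait. In WT ESCs this gave 3.90 for the Zfp genes, 3.12 for other baits of chromosome 7 and 3.96 for all baits. The EpiSC values were 3.73, 2.83 and 3.30, and those of *Nanog*-/- ESCs 3.61, 2.99 and 3.58. Relative to local density, the Zfp genes were thus near all baits in both ESC lists and above them in EpiSCs, with no interval for the ratio. Zfp genes of other chromosomes (7.37) and Olfr genes of chromosome 7 (6.61) had higher ratios in WT ESCs. A contact between 2 baits is captured from both ends, in every set.

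**Figure D1:**
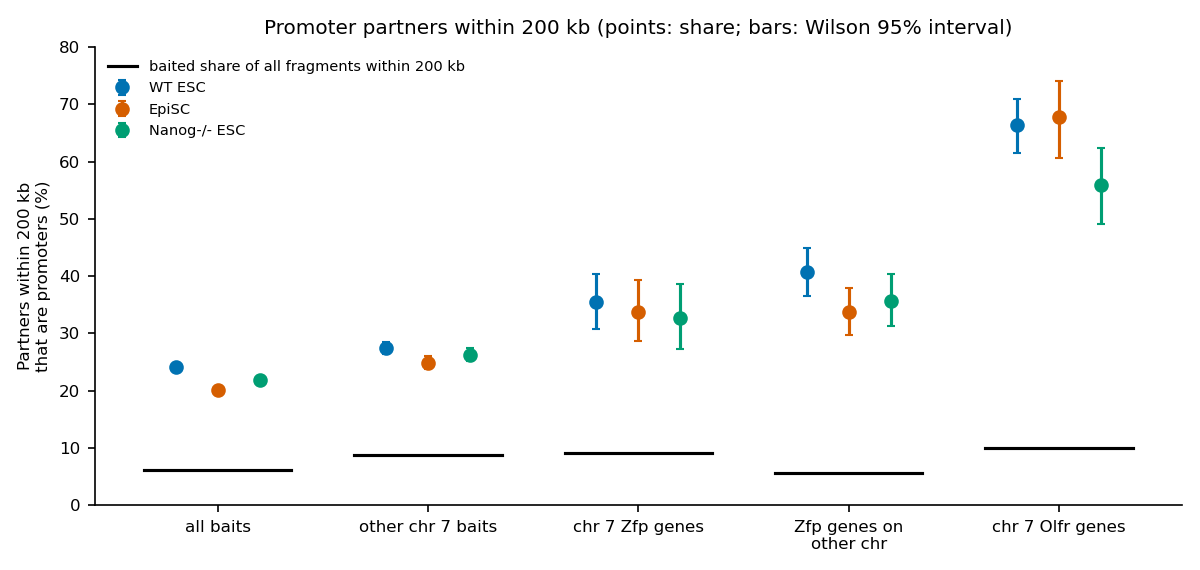
Share of partners within 200 kb that are baited promoters, in percent, for 5 sets of baits and the 3 lists, with Wilson 95% intervals, and as black lines the share of all HindIII fragments within 200 kb that are baited. The Zfp genes of chromosome 7 lie between 32.7% and 35.4%, over a line at 9.07%.

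Other Zfp promoters of chromosome 7 were the partner in 31 contacts of WT ESCs (6.54%, 4.65 to 9.13), 20 of EpiSCs (5.59%, 3.65 to 8.47) and 14 of *Nanog*-/- ESCs (4.59%, 2.75 to 7.56). Within the Olfr set of chromosome 7 the like share was 44.1%, 44.8% and 38.7%, and within the Zfp genes of other chromosomes, which are spread over many chromosomes, it was 3.61%, 2.76% and 2.02%. Zinc finger genes outside the set with names such as Zfp with a letter, Zscan or Zbtb (*Fiz1* and *Tshz3* count as other named genes) added 8, 7 and 4 contacts, and receptor genes 7, 2 and 1. Other named genes made up 128 of the 474 WT ESC contacts. The remaining 59.1%, 62.8% and 65.2% of contacts went to fragments without a bait. In WT ESCs, 115 of these 280 fragments held an exon of a protein-coding gene, 65 lay in an intron and 100 between genes. The like shares for other baits or for all nearby fragments were not computed.

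**Figure D2:**
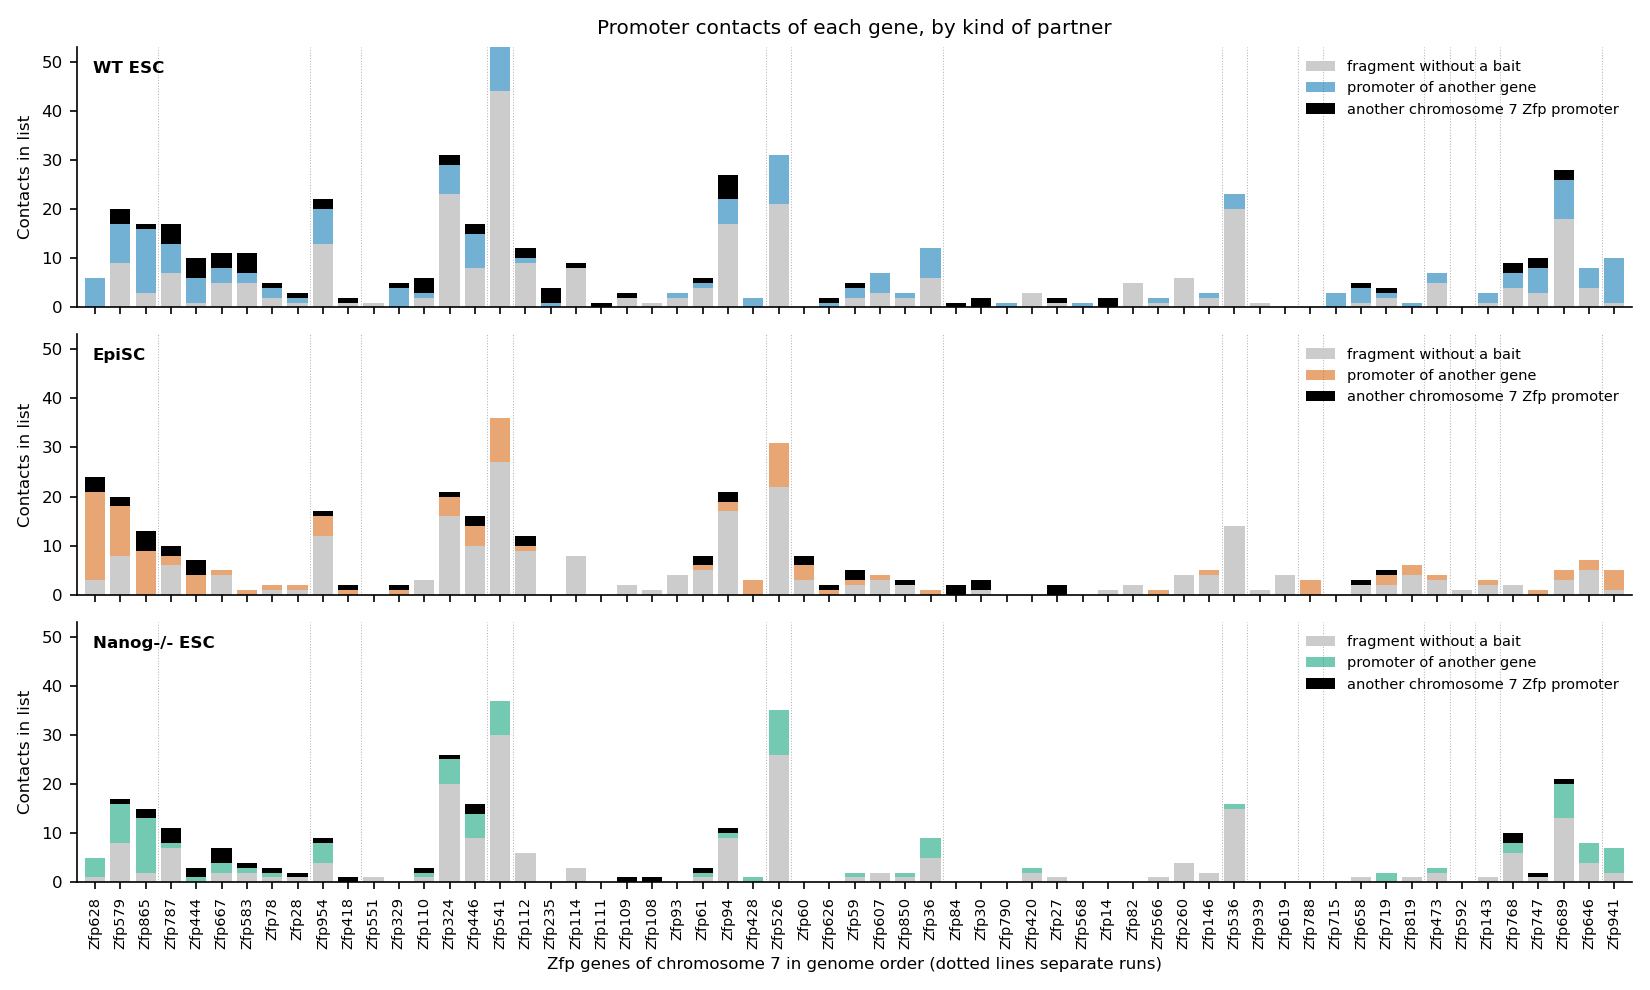
Number of contacts of each of the 61 genes in genome order in the 3 lists, stacked by kind of partner. The 8 genes with the most contacts summed over the lists hold 45.5%, 43.4% and 56.1% of contacts counted per gene in the 3 lists. *Zfp541* is highest at 53 in WT ESCs.

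A few genes held a large part of the contacts, and the like share for other sets of baits was not computed. Median contacts per bait were 5, 4 and 4 for other baits of chromosome 7 and 3, 3 and 2 for all baits. At least 1 contact was listed for 57, 54 and 44 of the 61 genes, and for 42 in all 3 lists, while *Zfp60*, *Zfp619*, *Zfp788* and *Zfp592* had none in WT ESCs. Among other baits of chromosome 7, 1400, 1314 and 1219 of 1492 had a contact in the 3 lists. Among all baits, 17063, 16171 and 14215 of 19022 had one. The median gene had 5 contacts in WT ESCs, 3 in EpiSCs and 2 in the *Nanog*-/- ESCs. The 8 genes with the most contacts summed over the 3 lists held 45.5%, 43.4% and 56.1% of the contacts counted per gene. In that count a contact between members counts for both genes. The 8 are not the top genes of each list, since *Zfp628*, with 24 contacts in EpiSCs, is not among them. *Zfp541*, a gene known for its role in male meiosis, had 53, 36 and 37 contacts at a median RPKM of 0.234, 0.0105 and 0.479. Its bait holds a RefSeq start of the gene but no GENCODE one. Its 58 different contacts, 87.2 kb away in the median, included 9 fragments without a bait in *Zfp541* itself and the promoters of *Napa*, *Kptn* and *Slc8a2*, and the pair with the *Slc8a2* promoter had 21, 10 and 9 reads. *Zfp526* had 31, 31 and 35 contacts and *Zfp324* 31, 21 and 26. *Zfp526* reached the promoters of *Cic*, a transcriptional repressor, and *Gsk3a*, a kinase, in every list, with 26, 21 and 21 reads and 61, 45 and 33 reads. *Zfp536*, known to restrain neuronal differentiation, had 23, 14 and 16 contacts. Of its 38 different contacts, 20 lay between genes and 14 in its own introns, and 3, 0 and 1 in the lists were promoters. The longest, with *Tshz3*, another zinc finger gene, at 1074 kb, had 7 reads in WT ESCs. *Zfp94* had 27, 21 and 11 contacts, *Zfp579* 20, 20 and 17, *Zfp446* 17, 16 and 16, and *Zfp689* 28, 5 and 21. Partner genes outside the set are named here after their values were seen, except those in contact with 4 or more members.

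Some of the zinc finger genes with the highest RPKM had few contacts. *Zfp568*, which represses a placental *Igf2* transcript, had 1 contact in WT ESCs and none in the other lists at 54.8, 43.4 and 90.8 scaled RPKM. *Zfp143*, an activator of small nuclear RNA genes, had 3, 3 and 1 at 41.6, 20.4 and 30.6 scaled RPKM. *Zfp428* had 2, 3 and 1 at 98.3, 45.8 and 126 scaled RPKM. Across the 61 genes, the number of contacts and the scaled RPKM had a Spearman correlation of -0.08 in WT ESCs, -0.0044 in EpiSCs and -0.04 in the *Nanog*-/- ESCs. Genes are not independent replicates, and these values are descriptions.

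In all, 44 pairs of Zfp promoters were in contact in at least 1 list, among 36 of the 61 genes. The pairs were 10.9 to 1257 kb apart with a median of 108 kb, and 37 were under 200 kb. Within a run lay 28 of 31 pairs in WT ESCs (90.3%, 75.1 to 96.7), 17 of 20 in EpiSCs and 13 of 14 in the *Nanog*-/- ESCs. Members less than 500 kb apart share a run by definition, so these numbers restate the short distances of the pairs. *Zfp787* and *Zfp444*, 15.5 kb apart, had 58 reads (score 23.1) in WT ESCs, 48 (25.0) in EpiSCs and 30 (23.2) in the *Nanog*-/- ESCs, the highest score of any pair of members. The pairs *Zfp324* with *Zfp446*, *Zfp61* with *Zfp94*, *Zfp579* with *Zfp865* and *Zfp954* with *Zfp418* were also in all 3 lists. *Zfp84* with *Zfp30* (39 and 29 reads) and *Zfp658* with *Zfp719* (33 and 38 reads) were in WT ESCs and EpiSCs but not in *Nanog*-/- ESCs, while *Zfp768* with *Zfp747* (25 and 14 reads) and *Zfp444* with *Zfp667* (9 and 7 reads) were in both ESC lists but not in EpiSCs.

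**Figure D3:**
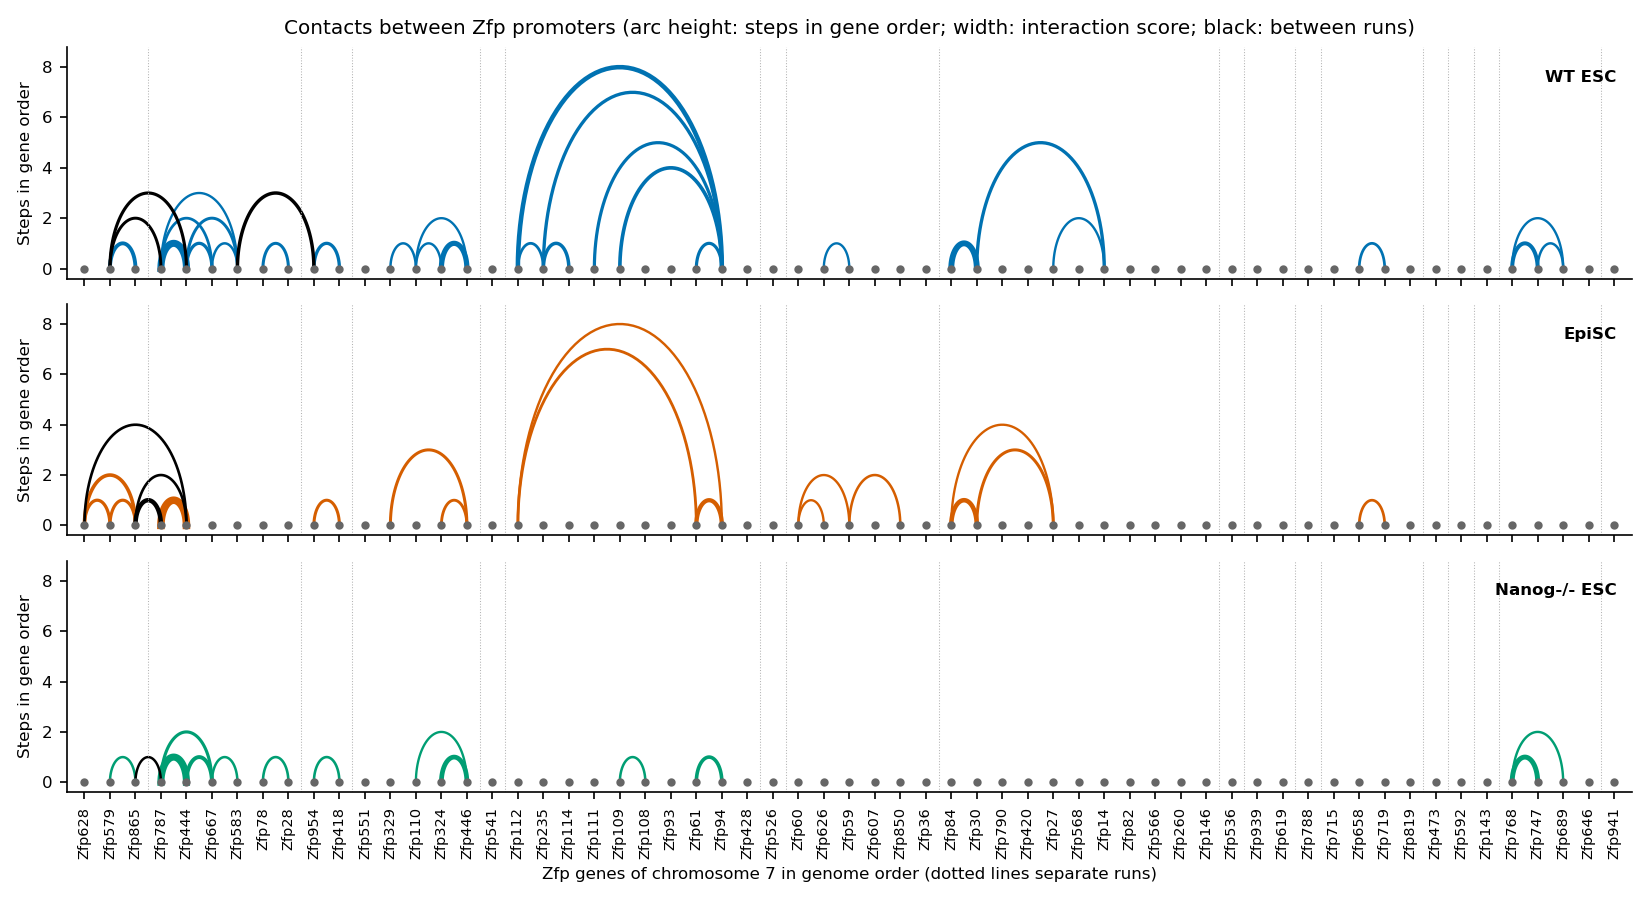
Contacts between Zfp promoters in the 3 lists, drawn as arcs over the genes in genome order. Arc height is the number of steps in gene order, width the score, and black arcs join different runs (3 in WT ESCs, 3 in EpiSCs and 1 in the *Nanog*-/- ESCs).

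Reads from near-identical tandem copies cannot be placed with certainty. Local alignments of the fragment pairs reached 300 bases in 2 of 44 pairs of members, *Zfp235* with *Zfp114* (1191 bases) and *Zfp626* with *Zfp59* (685 bases), and 1 of these was at least 90% identical. Over all 699 contacts of members within chromosome 7, 15 pairs (2.15%) reached that length. The other 42 pairs of members had no such alignment.

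The run of *Zfp112* to *Zfp428* had 7 inner contacts in WT ESCs, 3 in EpiSCs and 2 in the *Nanog*-/- ESCs. *Zfp94* took part in 5 of these in WT ESCs, with contacts to *Zfp112*, *Zfp235*, *Zfp111*, *Zfp109* and *Zfp61* and 10, 4, 7, 12 and 34 reads. In EpiSCs it kept *Zfp112* (4 reads) and *Zfp61* (35 reads), and in *Nanog*-/- ESCs *Zfp61* alone (20 reads). The run of *Zfp60* to *Zfp36* had 1, 3 and 0 inner contacts, and *Zfp60* itself had none in either ESC list and 8 in EpiSCs, among them *Zfp626* (5 reads) and *Zfp59* (9 reads). Its scaled RPKM values were 7.11, 7.22 and 5.84. *Zfp780b*, outside the set because of its letter, was in contact with 3, 4 and 1 members of the same run.

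Long contacts had a common place. Above 800 kb lay 18 of 471 contacts within the chromosome in WT ESCs (3.82%, 2.43 to 5.96), against 1.62% (1.39 to 1.88) for other baits of chromosome 7 and 1.30% for all baits. The like share was 4.07% (2.81 to 5.85) for Olfr genes of chromosome 7 and 2.72% (1.79 to 4.13) for Zfp genes of other chromosomes, with intervals that overlap that of the Zfp genes of chromosome 7. The shares were 2.27% (1.15 to 4.41) against 1.74% in EpiSCs and 0.66% (0.18 to 2.38) against 0.50% in *Nanog*-/- ESCs, where the intervals overlap. Of these contacts, 12 of 18 in WT ESCs, 7 of 8 in EpiSCs and 1 of 2 in the *Nanog*-/- ESCs joined the surroundings of *Zfp628*, *Zfp579* and *Zfp865* (chr7:4914951-5023446) with those of *Zfp787* and *Zfp444* (chr7:6154746-6173325), as defined by the flanks given next. Between the genes lie 1131 kb with 22 protein-coding genes in GENCODE, 12 of them vomeronasal receptor (Vmn) genes, which serve pheromone sensing. Flanks were set after the contacts were seen, from 300 kb outside to 100 kb inside each edge of the interval, and so include neighbouring genes such as *Epn1*, *U2af2*, *Ube2s* and *Galp*. Between the flanks, 19 contacts of any bait were listed in WT ESCs, 8 in EpiSCs and 2 in the *Nanog*-/- ESCs, with 93, 33 and 6 reads in sum.

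In WT ESCs, *Zfp579* reached *Zfp787* (5 reads, 1160 kb) and *Zfp444* (4 reads, 1176 kb). In EpiSCs, *Zfp865* reached *Zfp787* (6 reads, 1135 kb) and *Zfp444* (3 reads), and *Zfp628* reached *Zfp444* (3 reads, 1257 kb), while the *Zfp865* to *Zfp787* contact had 3 reads in *Nanog*-/- ESCs. No pair of Zfp promoters across the interval was in both the WT ESC and the EpiSC list, although the neighbourhoods were joined in both. *U2af2*, which encodes a splicing factor that binds polypyrimidine tracts, reached *Zfp787* in both lists with 4 reads each. *Fiz1*, itself a zinc finger gene, whose fragment also holds exons of *Zfp524*, reached *Zfp444* with 7 reads in WT ESCs and 4 in EpiSCs. *Galp*, the gene of galanin-like peptide, whose fragment also holds an exon of *Zfp444*, was in contact with 5 members in WT ESCs, 1 in EpiSCs and 3 in the *Nanog*-/- ESCs, and in WT ESCs with *Zfp865* across the interval (7 reads, score 16.0). Every contact of a Zfp promoter above 800 kb had fewer than 10 reads. *Zfp941*, near the far end of the chromosome, had most of its 10, 5 and 7 contacts just short of this distance, with medians of 714, 709 and 668 kb. Its partners *Prap1* (7, 5 and 4 reads) and *Echs1* (6, 5 and 5 reads) were in every list, and *Utf1*, a chromatin factor of pluripotent cells, lay 881 kb away with 6 reads in WT ESCs.

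**Figure D4:**
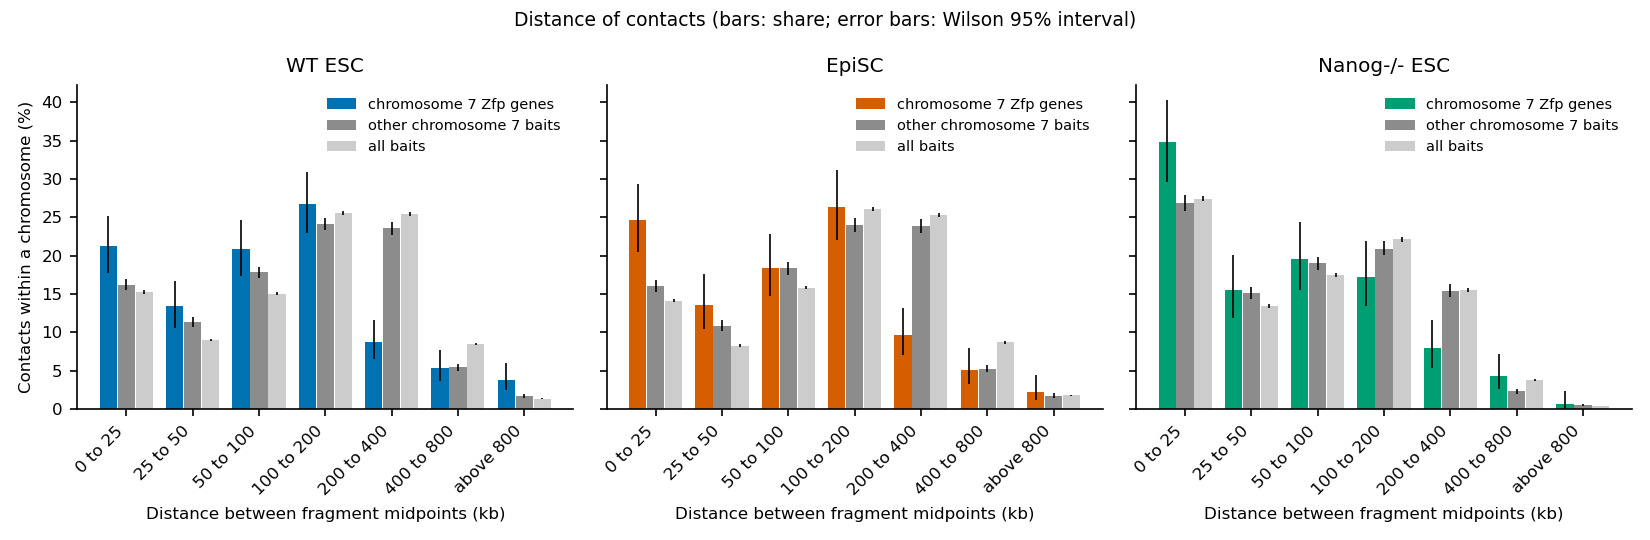
Share of contacts within a chromosome by distance between fragment midpoints, for the Zfp genes of chromosome 7, other baits of chromosome 7 and all baits, with Wilson 95% intervals. From 200 to 400 kb the Zfp genes have 8.70%, 9.63% and 7.95% in the 3 lists, below other baits of chromosome 7 at 23.5%, 23.9% and 15.4%.

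Most contacts were shorter. The median distance was 82.3 kb in WT ESCs (72.2 to 96.5), 76.7 kb in EpiSCs (65.3 to 96.5) and 49.7 kb in the *Nanog*-/- ESCs (41.3 to 62.1). Other baits of chromosome 7 had medians of 114, 115 and 70.05 kb, with intervals that do not reach those of the Zfp genes. The deficit fell between 200 and 400 kb, with 8.70% of Zfp contacts in WT ESCs (6.48 to 11.6) against 23.5% (22.7 to 24.4), and not between 400 and 800 kb, with 5.31% against 5.41%. The share below 25 kb was higher, at 21.2% (17.8 to 25.1) against 16.2% (15.5 to 16.9).

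Contacts with other chromosomes numbered 3, 5 and 3, on 7 different pairs. *Zfp324* was joined to an intronic fragment of *Smurf2*, a ubiquitin ligase gene (chr11:106877815-106886693), with 8, 10 and 4 reads (scores 52.3, 62.6 and 19.3), and to one of *Fstl5* (chr3:76389929-76400528) with 3, 3 and 2 reads, in all 3 lists. The fragments of the first pair share a best local alignment of 182 bases at 84.1% identity, and none of the 7 pairs reached 300 bases. *Zfp82* in WT ESCs and its neighbour *Zfp566* in *Nanog*-/- ESCs were each joined to 1 and the same fragment (chr10:24855018-24855984) with 3 and 2 reads.

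A fragment named for *Gm16532* (chr7:6398413-6399482), which overlaps an exon of *Smim17*, was the promoter in contact with the most members. It reached 5 of them in WT ESCs, 8 in EpiSCs and 3 in the *Nanog*-/- ESCs, at 0.249, 0.309 and 0.136 RPKM. In EpiSCs the 8 were all 6 genes of the run *Zfp787* to *Zfp28* and both genes of the run *Zfp954* to *Zfp418*, up to 771 kb away. With *Zfp954*, at 721 kb, it had 9, 6 and 4 reads and was in every list. In the same run of *Zfp787* to *Zfp28*, the inner contacts numbered 7 in WT ESCs, 1 in EpiSCs and 5 in the *Nanog*-/- ESCs, so the EpiSC list had more contacts to this fragment and fewer among the genes.

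The share of WT ESC contacts found in the other lists was close to that of other contacts of chromosome 7. Of the WT ESC contacts, 42.8% (38.4 to 47.3) were in the EpiSC list and 44.9% (40.5 to 49.4) in that of *Nanog*-/- ESCs, against 41.0% and 45.3% of chromosome 7 contacts without a member. Of the contacts of *Nanog*-/- ESCs, 69.8% (64.5 to 74.7) were in the WT ESC list against 61.1% (60.04 to 62.2), and of those of EpiSCs 56.7% (51.5 to 61.7) against 50.9% (49.8 to 52.0). These shares were higher than those of other contacts, with intervals that did not meet for *Nanog*-/- ESCs and met for EpiSCs. All 3 lists held 136 of 706 contacts, or 19.3%, against 17.1%. By kind of partner, 8 of 31 WT ESC contacts between members were in EpiSCs (25.8%, 13.7 to 43.2) against 72 of 163 with other promoters (44.2%, 36.8 to 51.8), and these intervals overlap.

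Single genes departed from the general pattern of fewer contacts in EpiSCs and *Nanog*-/- ESCs, which also have fewer contacts in their whole lists. In EpiSCs, 37 genes had fewer contacts than in WT ESCs and 13 had more, and in *Nanog*-/- ESCs 50 had fewer and 2 had more. The whole lists fell from 100492 pairs to 87369 and 74931. Like counts for other baits were not computed, so these numbers cannot be read as particular to the Zfp genes. *Zfp628* had 24 contacts in EpiSCs against 6 and 5 in the ESC lists, and 21 of the 24 were promoters. They included *Fiz1* (15 reads), *Zfp579* (14 reads) and *Zfp865* (12 reads), none of them listed for it in ESCs. *Zfp689*, *Zfp768* and *Zfp747*, which lie in 1 run with *Zfp646* (chr7:127343652-127877526), went the other way, with 28, 9 and 10 contacts in WT ESCs and 5, 2 and 1 in EpiSCs. *Nanog*-/- ESCs stayed near WT ESCs for *Zfp689* and *Zfp768*, with 21 and 10, but had 2 for *Zfp747*. *Zfp646* had 8, 7 and 8. *Zfp36* had 12 contacts in WT ESCs, 1 in EpiSCs and 9 in the *Nanog*-/- ESCs at 23.1, 17.3 and 20.2 scaled RPKM.

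Most Zfp genes were expressed, at moderate levels. EpiSC medians exceeded those of WT ESCs by 0.91 on the log2 scale in the median gene, so EpiSC and *Nanog*-/- values were scaled to a median log2 ratio of 0 against WT ESCs, and differences are on the scale of log2(scaled RPKM + 1) unless stated. In WT ESCs, 57 of 61 genes (93.4%) were at 1 RPKM or more against 62.3% of all 15646 genes, but only 14 (23.0%) reached 10 RPKM against 38.0%. The median was 4.57 scaled RPKM in WT ESCs, 4.60 in EpiSCs and 5.18 in the *Nanog*-/- ESCs. The Zfp genes of other chromosomes had medians of 6.77, 8.54 and 7.66.

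In EpiSCs, 6 genes (9.84%) were higher than in WT ESCs by 2-fold or more, against 10.4% of all genes, and 5 (8.20%) were lower, against 9.66%. The numbers are thus near those of all genes in both directions, but all genes are no matched background. Genes under 1 scaled RPKM in both groups cannot pass 2-fold with a pseudocount of 1. In WT ESCs 62.3% of all genes and 93.4% of the Zfp genes were at 1 RPKM or more. The share over expressed genes alone was not computed. They depend on the scale, since RPKM as deposited put 17 higher (30.1% of all genes) and 3 lower (5.78% of all genes), and a pseudocount of 0.1 put 9 higher (16.4% of all genes) and 12 lower (15.3% of all genes). *Zfp768* went furthest up, with scaled RPKM of 3.35 in WT ESCs, 17.8 in EpiSCs and 4.27 in the *Nanog*-/- ESCs, a log2 difference of 2.11 for EpiSCs. *Zfp61* (1.14), *Zfp579* (1.13), *Zfp658* (1.07), *Zfp865* (1.04) and *Zfp719* (1.03) followed, close to the 2-fold limit. *Zfp579* and *Zfp865* are neighbours in contact in all 3 lists, and *Zfp658* and *Zfp719* are the pair with the NRF1 motif. The other genes with that motif, *Zfp329* (0.90), *Zfp30* (-0.04) and *Zfp82* (-0.77), did not pass 2-fold.

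Among the genes lower in EpiSCs, *Zfp819*, a KRAB gene of pluripotent cells known to interact with TRIM28, had 19.4 scaled RPKM in WT ESCs, 0.0311 in EpiSCs and 28.5 in the *Nanog*-/- ESCs, a log2 difference of -4.31 for EpiSCs. It had 1, 6 and 1 contacts, so the list with the lowest expression held the most. *Zfp941* had 9.0, 1.36 and 8.67 (-2.09) and *Zfp59* 13.4, 2.64 and 10.1 (-1.98). *Zfp428* and *Zfp566* passed the limit by little, at -1.08 and -1.06, and *Zfp143* missed it at -0.99. *Zfp110*, whose product binds the neurotrophin receptor p75, differed by -0.42 and *Zfp568* by -0.33.

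**Figure D5:**
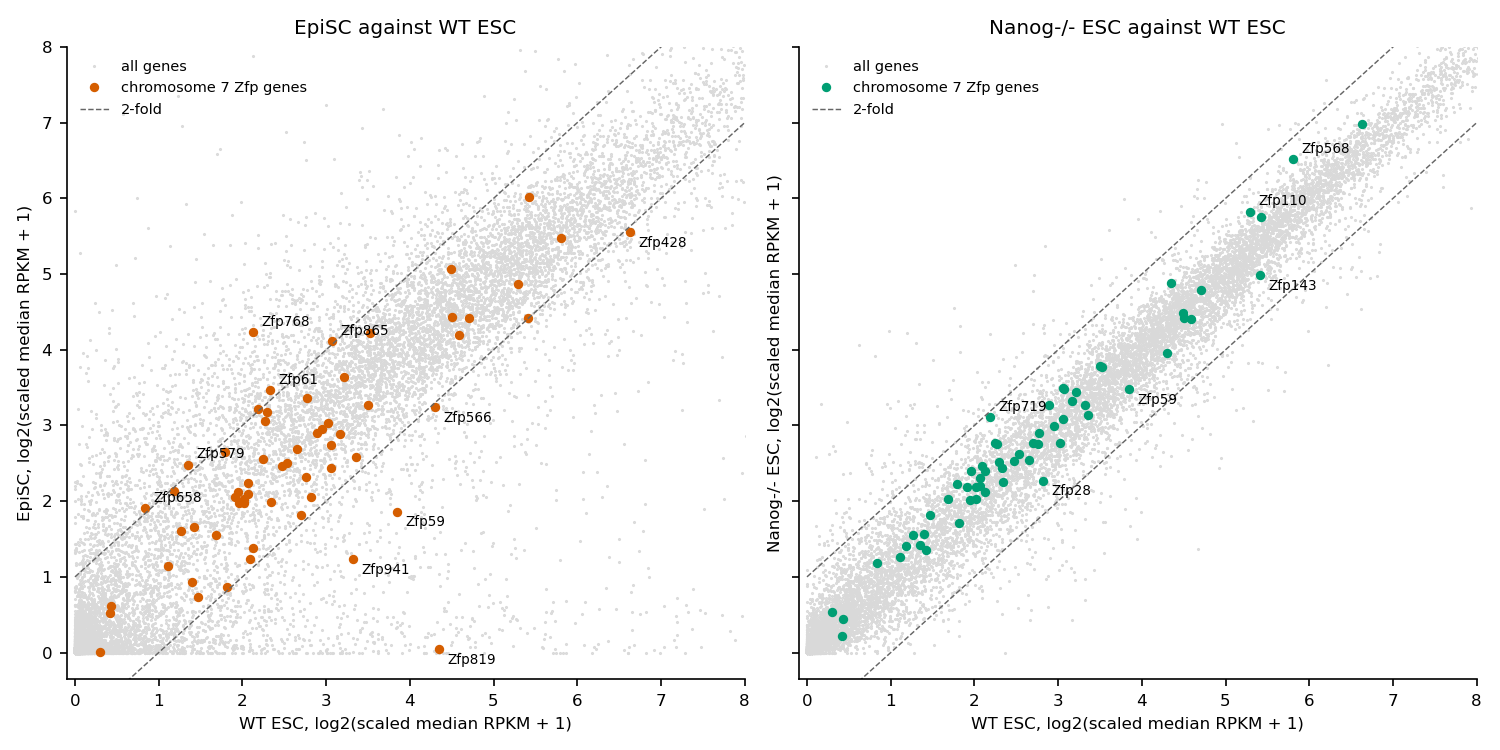
Scaled median RPKM of EpiSCs and of *Nanog*-/- cells against WT ESCs as log2(RPKM + 1), with the 61 Zfp genes over all genes in grey and dashed lines at a 2-fold difference. Genes above 8 on either axis are not drawn. 11 Zfp genes lie beyond the lines in EpiSCs and none in the *Nanog*-/- ESCs.

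In *Nanog*-/- ESCs, 0 of 61 genes passed 2-fold in either direction, against 1.5% of all genes higher and 1.51% lower. The median difference was 0.15, and 44 of 61 genes (72.1%) were above 0, as were 67.1% of the Zfp genes of other chromosomes, against 46.1% of all genes, where genes equal in both groups count as not above 0. The largest were *Zfp719* (0.92), *Zfp568* (0.72) and *Zfp110* (0.54), and the lowest *Zfp28* (-0.55), *Zfp143* (-0.43) and *Zfp59* (-0.37).

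Among genes listed as partners of KRAB proteins, some were lower in EpiSCs after scaling. *Zfp57* is on the list although it is itself a zinc finger gene. Of 25 genes listed, 21 are in the table, and 5 (23.8%, 10.6 to 45.1) were lower by 2-fold or more against 9.66% of all genes, while 1 was higher. *Trim28*, the KRAB corepressor, had 970, 438 and 997 scaled RPKM in WT ESCs, EpiSCs and *Nanog*-/- ESCs (-1.15 for EpiSCs). *Hdac1*, a histone deacetylase, had 158, 19.6 and 151 (-2.95). *Zfp57* (-1.52), which keeps imprints, *Morc3* (-1.41), a chromatin ATPase, and *Smarcad1* (-1.24), a chromatin remodeler, were the others, and *Chd3*, of the NuRD complex, was the gene higher in EpiSCs (2.03). In *Nanog*-/- ESCs, *Dnmt3a*, a de novo DNA methyltransferase, was higher (1.43) and none was lower. These directions are relative to the shift of 0.91. Among the lower genes, only *Hdac1* passed the 2-fold limit by more than that shift, so the count of 5 depends on the scaling. As deposited, the median of the 21 genes was 95.6 RPKM in WT ESCs and 140 in EpiSCs. All 21 were at 1 RPKM or more in EpiSCs, against 61.5% of all genes, so the share over all genes is no matched background.

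Expression was set beside contact among the genes. In WT ESCs, the 32 genes in contact with another member had a median of 3.95 scaled RPKM and the other 29 one of 7.11. In EpiSCs the medians were 4.93 for 22 genes and 4.44 for 39, and in *Nanog*-/- ESCs 4.81 for 20 and 5.73 for 41. Both genes of a pair were at 1 RPKM or more in 28 of 31 pairs of WT ESCs, 18 of 20 of EpiSCs and all 14 of *Nanog*-/- ESCs. Of all 61 genes, 57, 54 and 58 were at 1 RPKM or more in the 3 groups. Most pairs of members would thus pass whether in contact or not. The change in number of contacts and the log2 difference had a Spearman correlation of 0.0087 for EpiSCs and 0.06 for *Nanog*-/- ESCs over the 61 genes. *Zfp768* had more expression and fewer contacts in EpiSCs than in WT ESCs, and *Zfp819* the opposite.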

How the data were processed

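PCHi-C and RNA-seq files of WT ESCs, EpiSCs and *Nanog*-/- ESCs were used. By the paper's methods and the submitters' processing notes, the authors mapped PCHi-C reads with HiCUP (Bowtie 1.1.0, GRCm38), scored pairs of HindIII fragments with CHiCAGO and combined 2 biological replicates. The deposited lists give the count of reads and the CHiCAGO score of each pair from a score of 5. All 96056 listed fragments are HindIII fragments of GRCm38.p6. The RNA table (the notes name Trim Galore, TopHat and DESeq2, versions not given) holds the authors' RPKM medians per group. Its deposited log2 fold changes and p-values hold the authors' own comparisons and were not used. The column BT12 was taken as the *Nanog*-/- line. ChIP-seq files were not analysed here.

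Pairs listed from each end were merged, with the higher read number and score. Distances are between fragment midpoints. RPKM was divided so that the median log2 ratio to WT ESCs is 0 over genes at 1 RPKM or more in both groups (9077 genes for EpiSCs, 9496 for *Nanog*-/- ESCs), and a pseudocount of 1 was added. Called means past 2-fold. Fragment pairs were aligned with blastn 2.17.0 (e-value 1e-10). Functions were tested on simulated data. Work was done in Python 3.11.15 with matplotlib 3.10.9, pandas 2.3.3, scipy 1.17.1 and numpy 2.4.6.

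Named genes were the 8 with most contacts, those with the largest expression differences (5 and 5 for EpiSCs, 3 and 3 for *Nanog*-/- ESCs), those of the 8 highest-scoring and 5 longest pairs, 5 members with a known role, and promoters in contact with 4 or more members. Others were named after their values were seen. The members, lists and rules were chosen with earlier results of these data known. Alternatives were a score of 7, 10 reads, a shift of 1 fragment, a run gap of 1 Mb, a pseudocount of 0.1, unscaled RPKM and a filter at 1 RPKM.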

Additional observations from a re-analysis of the deposited data

How the results depend on the processing

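Of 54 values recomputed under an alternative that could change them, 24 stayed within the interval of the value reported (for counts of genes, within 1.5 times) and 30 did not. Restricting to fragments that name only a member changed nothing by construction, since no fragment names a further gene. At 10 reads or more, the share of promoter partners was 33.8% for WT ESCs, 30.7% for EpiSCs and 26.7% for *Nanog*-/- ESCs, and at a score of at least 7 it was 43.5% in EpiSCs and 41.8% in *Nanog*-/- ESCs. The median distance became 48.4, 31.2 and 19.0 kb at 10 reads, and 68.8 kb in WT ESCs and 30.6 kb in *Nanog*-/- ESCs at a score of 7. The share above 800 kb became 0% in all 3 lists at 10 reads and 0% in *Nanog*-/- ESCs at a score of 7. With ends allowed to shift by 1 fragment, WT ESC contacts were in the EpiSC list in 56.5% and in the *Nanog*-/- list in 57.4%, EpiSC contacts in the WT ESC list in 72.3% and *Nanog*-/- contacts in 84.3%. At a score of 7 in both lists, WT ESC contacts were in the EpiSC list in 37.8%, EpiSC contacts in the WT ESC list in 51.2% and *Nanog*-/- contacts in 63.6%. At 10 reads, these shares were 50.6%, 58.3%, 71.9% and 76.2% in the order given for the shift. Within a run lay 100% of *Nanog*-/- pairs of members at a score of 7. As deposited, RPKM put 17 members higher by 2-fold or more in EpiSCs (30.1% of all genes) and 3 lower (5.78%). A pseudocount of 0.1 put 9 higher (16.4% of all genes) and 12 lower (15.3%) in EpiSCs, and 1 higher in *Nanog*-/- ESCs (4.96%). The causes were not tested.

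No paired analysis was possible because the contact lists are combined over replicates and the RNA table gives only group medians and no replicate was left out, for the same reason. The depth of the libraries is unknown from the lists, and a contact with few reads can fall under the score of 5 by counting error. RPKM medians near 0 give no depth, so low genes have no error.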
